A study of Mus musculus with 18 samples.

Results

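Interferon gamma, encoded by Ifng, and 6 of its response genes (Cxcl9, Cxcl10, Ido1, Wars, Socs1 and Irf1) are described here, 7 genes of 54532 in the deposited tables. The genes were picked by name with earlier results of these data known, so that their differences between groups are given as a description. Where the calls of the fit over all genes are counted for them, the count supports nothing. RNA from mouse colon was sequenced in 18 libraries, 10 of distal colon in colitis and 8 of colorectal tumours. Colitis was brought on with 2.5% dextran sulfate sodium (DSS) in the drinking water for 5 days and then plain water for 2 days, and 0.5 cm of distal colon was taken. Tumours came from the azoxymethane and DSS model (AOM/DSS), in which a carcinogen is combined with DSS. All mice were C57BL/6 by the labels, and no age is given in the labels. In colitis there were 3 Il1f5+/+ (WT) and 3 Il1f5-/- (KO) libraries, and 2 Il1f9+/+ and 2 Il1f9-/- libraries. Tumours gave 2 libraries for each of the same 4 genotypes. Both targeted genes encode members of the interleukin-36 group of cytokines: Il1f5 the receptor antagonist and Il1f9 the agonist interleukin-36 gamma. The design text counts mice per group, so that libraries of a group are read as separate mice, and p-values measure the spread between them.

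Total counts ran from 16621611 to 23776174 per library. Il1f9 was lost as labelled: its counts were 232 and 90 in the 2 Il1f9 WT colitis libraries against 9 and 1 in Il1f9 KO, and 1652 and 752 against 2 and 0 in tumours. For Il1f5 the counts went against the label. All 5 Il1f5 WT libraries had 0 counts, as had all 8 libraries of the Il1f9 line, WT and KO, whereas the libraries labelled Il1f5 KO had 36 to 45 in colitis and 102 to 211 in tumours. Every direction given below for that line is therefore the direction of the libraries labelled Il1f5 KO, and their genotype was not tested further. One further library stands apart in what follows, the second Il1f9 KO tumour, and results that rest on it are given with and without it.

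Interferon gamma is a cytokine made mainly by T cells and natural killer (NK) cells. It binds a receptor of Ifngr1 and Ifngr2 chains, which act through the kinases Jak1 and Jak2. Direct target genes are known to carry GAS elements, and the induced factor Irf1 acts on ISRE elements of a later set. In the inflamed gut the pathway is known for recruiting T cells through chemokines, raising antigen presentation and breaking down tryptophan.

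Promoter windows of 5 of the 7 genes were matched in RefSeq (GRCm38.p6), and they are shown so that the letters can be set beside the motifs named above. Each window is the 250 bases before the transcription start, written 5′ to 3′ on the gene's own strand, with matches to 3 motifs in capitals: GAS (TTCNNNGAA), ISRE (GAAA, any 2 bases, GAAA) and kappa B, the site of the NF-kappa B factors, searched on both strands.
Irf1, chr11:53769764-53770013, plus strand: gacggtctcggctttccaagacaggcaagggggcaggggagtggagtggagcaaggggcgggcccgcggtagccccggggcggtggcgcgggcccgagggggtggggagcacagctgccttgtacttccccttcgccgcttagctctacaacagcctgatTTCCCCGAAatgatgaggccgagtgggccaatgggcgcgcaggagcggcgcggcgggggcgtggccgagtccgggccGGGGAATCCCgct
Cxcl10, chr5:92348890-92349139, minus strand: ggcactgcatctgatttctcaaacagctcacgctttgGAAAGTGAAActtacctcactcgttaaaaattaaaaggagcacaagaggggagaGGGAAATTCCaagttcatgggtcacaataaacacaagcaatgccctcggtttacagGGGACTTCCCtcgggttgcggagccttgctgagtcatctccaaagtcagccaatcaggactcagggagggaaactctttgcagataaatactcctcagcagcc
Socs1, chr16:10785537-10785786, minus strand: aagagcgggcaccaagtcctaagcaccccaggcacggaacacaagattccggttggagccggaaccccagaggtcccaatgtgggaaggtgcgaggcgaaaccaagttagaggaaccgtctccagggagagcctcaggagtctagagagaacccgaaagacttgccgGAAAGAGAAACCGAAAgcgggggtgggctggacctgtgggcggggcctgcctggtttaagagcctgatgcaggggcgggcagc
Cxcl9, chr5:92328080-92328329, minus strand: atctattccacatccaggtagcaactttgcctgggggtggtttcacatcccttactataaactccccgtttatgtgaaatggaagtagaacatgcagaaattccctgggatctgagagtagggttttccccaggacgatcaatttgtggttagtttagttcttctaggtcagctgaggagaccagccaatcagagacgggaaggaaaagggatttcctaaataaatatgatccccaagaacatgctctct
Ifng, chr10:118440796-118441045, plus strand: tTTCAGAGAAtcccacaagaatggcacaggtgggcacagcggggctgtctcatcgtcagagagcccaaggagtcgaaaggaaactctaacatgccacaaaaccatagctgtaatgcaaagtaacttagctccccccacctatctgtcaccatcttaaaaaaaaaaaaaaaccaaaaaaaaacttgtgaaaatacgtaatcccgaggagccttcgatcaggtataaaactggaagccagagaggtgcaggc

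Irf1 held 1 GAS match, TTCCCCGAA, 90 to 82 bases before the start, and 1 kappa B match close to the start. In Cxcl10 there was 1 ISRE match, GAAAGTGAAA, 213 to 204 bases before the start, with 2 kappa B matches nearer to it. Socs1 held 2 ISRE matches that overlap each other, together spanning bases 83 to 68 before the start. The Ifng window had 1 GAS match at its far end, and these exact letters are not in the Cxcl9 window. Among 32841 promoter windows of the same length, 7.02% held a GAS match, 2.98% an ISRE match and 3.9% a kappa B match. A match is a description of the letters and not a measured site.

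The genes lie on 6 chromosomes, and their positions in the deposited tables equal those of GENCODE M21 (GRCm38). Ifng is at chr10:118441046-118445892, Irf1 at chr11:53770014-53778374, Socs1 at chr16:10782240-10785536, Ido1 at chr8:24584136-24597009 and Wars at chr12:108860030-108894174. Cxcl9 (chr5:92321347-92328079) and Cxcl10 (chr5:92346638-92348889) are neighbours on the minus strand. The library kit did not keep strand. Reads from exon bases shared by Cxcl10 and Art3, which lies on the opposite strand, can therefore not be told apart. The same holds for Irf1 and Gm17334. Art3 had 17 to 365 counts per library and Gm17334 had 2 to 36. Exons of Ifng overlap those of Gm49751 on the same strand in GENCODE M21, a gene not analysed here.

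Levels below are CPM, counts scaled to library size, after TMM scaling, a correction for library composition. Ifng itself was scarce. In colitis its counts were 49, 35 and 131 in the Il1f5 WT libraries, or 2.57, 2.09 and 5.51 CPM. The libraries labelled Il1f5 KO had 4, 1 and 9 counts, or 0.211, 0.0496 and 0.495 CPM. All 3 lay below all 3 WT libraries, although at such depth a count of 4 has an exact Poisson 95% interval of 1.09 to 10.2, for counting error only. In the Il1f9 line the WT colitis libraries had 2.15 and 0.491 CPM and the KO libraries 0.412 and 0.296 CPM, so that WT library 2 (10 counts) sat just above the KO libraries (7 and 6 counts). Tumours had still less in most libraries, with 0.191 and 0.0497 CPM in Il1f5 WT and 0.385 and 0.105 CPM in those labelled Il1f5 KO. The Il1f9 tumours were split within each genotype: 2.23 and 0.288 CPM in WT, 0.242 and 16.8 CPM in KO. The last value, from 284 counts, was the highest Ifng level of all 18 libraries and 69.2 times that of the other KO tumour.

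**Figure D1:**
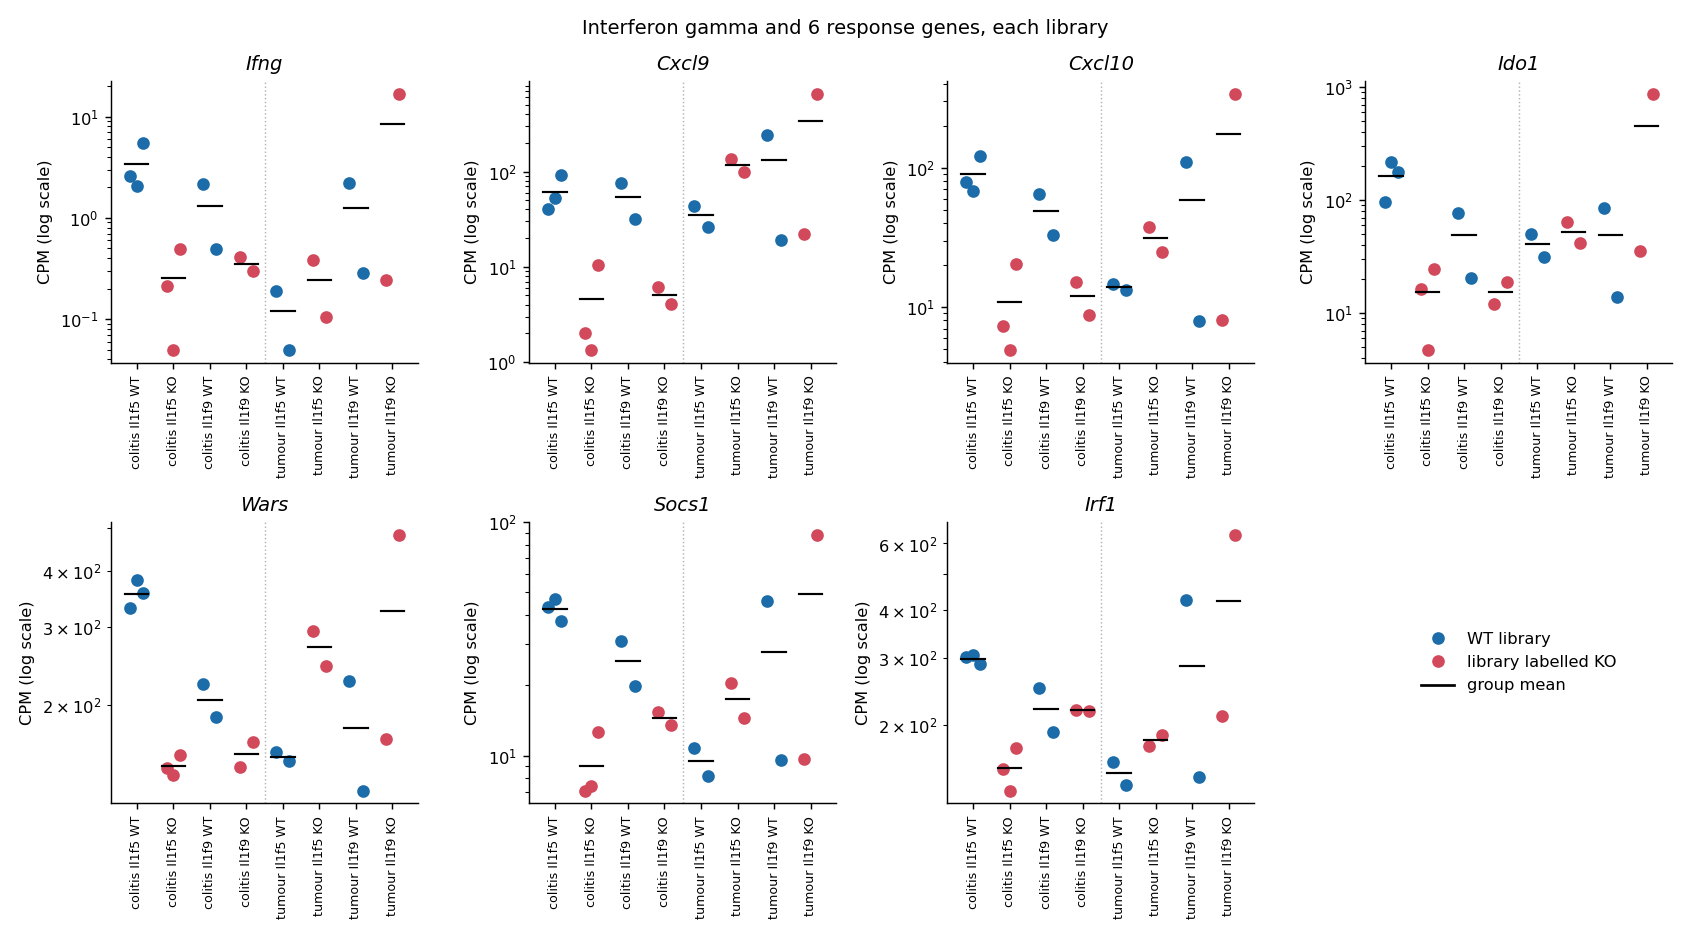
TMM-scaled CPM of the 7 genes (log scale) in each of the 18 libraries, by tissue, line and genotype; points are libraries (blue WT, red labelled KO) and bars are group means. The colitis libraries labelled Il1f5 KO lie below Il1f5 WT for all 7 genes, and 1 of the 2 Il1f9 KO tumours lies far above the other.

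Irf1, a transcription factor made within the first wave of the response, was abundant and moved within a narrow range, 133.9 to 633 CPM over all libraries. Its colitis levels were 301, 305 and 288 CPM in Il1f5 WT and 153, 133.9 and 174 CPM in the libraries labelled KO. These groups did not overlap, and the WT mean was 1.94 times the KO mean. In the Il1f9 line the levels were 249.6 and 191 CPM in WT and 218 and 217 CPM in KO, where the KO libraries fell between the WT ones. Irf1 was thus the only gene of the 7 whose WT and KO libraries overlapped in Il1f9 colitis.

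Socs1, the feedback inhibitor that binds and blocks the Jak kinases, was measured at 43.4, 46.9 and 37.7 CPM in Il1f5 WT colitis and at 7.08, 7.39 and 12.6 CPM in the libraries labelled KO. The WT mean was 4.73 times the KO mean, a wider gap than that of Irf1. In Il1f9 colitis it was 31.0 and 19.8 CPM in WT and 15.3 and 13.6 CPM in KO. Socs1 per unit of Irf1, as a ratio of the authors' FPKM values (fragments scaled by gene length and library size), was 0.179 to 0.21 in the Il1f5 WT colitis libraries and 0.0634 to 0.0992 in those labelled KO.

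Cxcl9 and Cxcl10 encode ligands of the receptor Cxcr3, through which activated T cells are drawn in. Cxcl9 was at 40.3, 52.4 and 91.7 CPM in Il1f5 WT colitis and at 2.01, 1.34 and 10.5 CPM in the libraries labelled KO. Its WT mean was 13.4 times the KO mean, nearly the same as for Ifng itself. Cxcl10 was at 78.7, 68.5 and 122 CPM against 7.29, 4.91 and 20.2 CPM, a gap of 8.31 times. In both genes library 3 was the highest of the WT group and library 3 the highest of the KO group, as for Ifng, and the groups stayed apart. In Il1f9 colitis, Cxcl9 was at 76.5 and 31.4 CPM in WT and 6.11 and 4.09 CPM in KO. Cxcl10 there was at 64.7 and 32.7 CPM against 15.1 and 8.83 CPM.

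Ido1 encodes the enzyme that opens the kynurenine pathway of tryptophan breakdown, and Wars the cytosolic tryptophanyl-tRNA synthetase, which charges tRNA with the same amino acid. Ido1 was at 95.5, 216 and 179 CPM in Il1f5 WT colitis and 16.3, 4.71 and 24.7 CPM in the libraries labelled KO. Wars was at 330.2, 382 and 357 CPM against 145, 139 and 154 CPM, a gap of 2.44 times with little spread in either group. The Il1f9 colitis libraries had 77.5 and 20.6 CPM of Ido1 in WT and 11.9 and 18.8 CPM in KO, where WT library 2 was close to KO library 2. Wars there was at 223 and 188 CPM against 145 and 165 CPM. The ratio of Ido1 to Wars in FPKM was 0.546, 1.07 and 0.945 in Il1f5 WT colitis and 0.213, 0.064 and 0.302 in the libraries labelled KO, so that the breakdown enzyme was the lower of the pair in 9 of the 10 colitis libraries.

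Log2 fold changes from the fit over all genes, ± standard error (SE), put these gaps on one scale. For the libraries labelled Il1f5 KO against WT in colitis (n = 3 and 3) they were -3.76 ± 0.71 for Ifng, -3.76 ± 0.82 for Cxcl9, -3.43 ± 0.76 for Ido1 and -3.06 ± 0.60 for Cxcl10. Socs1 had -2.25 ± 0.24, Wars -1.29 ± 0.10 and Irf1 -0.96 ± 0.12. Leaving out each of the 6 libraries in turn moved the Cxcl9 value between -5.19 and -3.30 and the Ifng value between -4.66 and -3.21, and the Irf1 value between -1.04 and -0.86. The call rule, a Benjamini-Hochberg adjusted p under 0.05 in the edgeR quasi-likelihood test, called 7 of the 7 genes lower, where 11% of all 18299 tested genes were called lower. Groups apart from each other were found in 7 of 7, against 22% of all tested genes that were lower in each KO library than in each WT library. Since the genes were chosen with this contrast known, neither count is read further.

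In Il1f9 colitis (n = 2 and 2) the log2 fold changes were closer to 0 for all 7 genes and uneven: -3.41 ± 0.99 for Cxcl9, -2.03 ± 0.72 for Cxcl10, -1.89 ± 0.88 for Ifng and -1.67 ± 0.89 for Ido1. Socs1 had -0.81 ± 0.28, Wars -0.40 ± 0.12 and Irf1 -0.01 ± 0.15. The rule called 1 of 7, Wars, against 9.98% of all genes called lower and 19.6% in either direction. In 6 of 7 the KO libraries lay below the WT libraries, against 30.9% of all genes, with 30.1% in the other direction. Without WT library 1 the Ifng value was -0.48 and that of Ido1 -0.41. The size of both values rests on that library. As above, the genes were chosen with these values known and the counts are not read further.

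**Figure D2:**
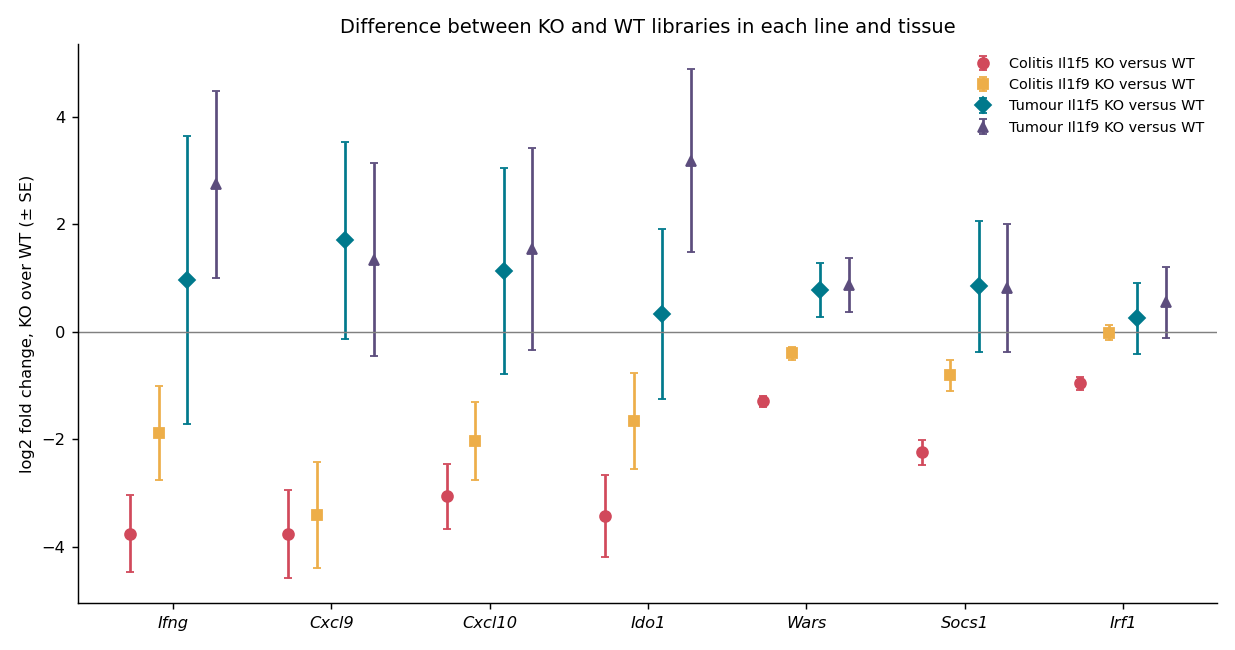
Log2 fold change of the libraries labelled KO over WT (± SE) for the 7 genes in 4 comparisons: colitis and tumours of the Il1f5 and Il1f9 lines. All 7 points of Il1f5 colitis lie below 0, from -3.76 to -0.96, and the points of both tumour comparisons lie above 0 with wide error bars.

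Tumours gave other values. In the Il1f5 line Cxcl9 was at 43.8 and 26.2 CPM in WT and 135 and 98.7 CPM in the libraries labelled KO. Cxcl10 was at 14.5 and 13.3 CPM against 37.8 and 25.0 CPM, Wars at 157 and 149 CPM against 294 and 246 CPM, and Socs1 at 10.7 and 8.2 CPM against 20.5 and 14.5 CPM. Irf1 was at 159 and 139 CPM against 176 and 187 CPM. The KO libraries were thus above WT for these 5 genes, where 35.3% of all tested genes had KO libraries above WT ones. Ido1 overlapped, with 49.7 and 31.5 CPM in WT and 63.7 and 41.3 CPM in KO, and so did Ifng. The log2 fold changes ran from 0.25 ± 0.66 for Irf1 to 1.70 ± 1.83 for Cxcl9, and none of the 7 was called, where 0.028% of all genes were called in either direction (0.0112% higher). The fit takes its spread from all 8 tumour libraries, the Il1f9 tumours included, whose libraries differed within genotype.

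In the Il1f9 tumours the second KO library had 655 CPM of Cxcl9 against 21.9 CPM in KO library 1, 340.1 against 8.06 CPM of Cxcl10, and 871 against 35.4 CPM of Ido1. Socs1 was at 88.5 against 9.64 CPM, Irf1 at 633 against 211 CPM and Wars at 484 against 168 CPM. That library had the highest level of all 18 for each of the 7 genes. The WT tumours were split in the same way to a lesser degree: WT library 1 had 244 CPM of Cxcl9, 109.9 of Cxcl10, 84.4 of Ido1, 45.8 of Socs1, 425 of Irf1 and 227 of Wars, against 19.1, 7.89, 13.9, 9.56, 145.5 and 128 CPM in WT library 2. WT and KO libraries therefore overlapped for 7 of 7 genes. The log2 fold changes were all above 0, from 0.55 ± 0.66 for Irf1 to 3.19 ± 1.70 for Ido1, and without KO library 2 all were below 0, from -2.87 for Cxcl10 to -0.07 for Wars. The rule called 0 of 7 with all libraries, against 0.0168% of all genes (0.0056% higher, 0.0112% lower). In KO library 2 the summed level of 14 T and NK cell markers was 101 CPM, against 28.5 CPM in KO library 1 and 41.2 to 43.1 CPM in WT, and 6 smooth muscle markers summed to 757 CPM against 68.0 CPM. Their part in the result was not tested. RNA from bulk tissue cannot tell fewer cells of a type from less RNA per cell.

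Ordered by group mean, Cxcl9 was highest in the Il1f9 KO tumours (339 ± 448 CPM, SD, n = 2) and lowest in the colitis libraries labelled Il1f5 KO (4.6 ± 5.08 CPM, SD, n = 3). The steps at which neighbouring groups of that order had no library in common range were from tumours labelled Il1f5 KO (117 ± 25.5 CPM, n = 2) to Il1f5 WT colitis (61.4 ± 26.9 CPM, n = 3), and from Il1f5 WT tumours (34.97 ± 12.5 CPM, n = 2) to Il1f9 KO colitis (5.1 ± 1.43 CPM, n = 2). For Ifng every pair of neighbouring groups overlapped. With all libraries, Wars was the only one of the 7 with its highest group mean in colitis, 356 ± 25.9 CPM (SD, n = 3) in Il1f5 WT. The other genes had theirs in the Il1f9 KO tumours, through KO library 2. KO library 1 had 0.242 CPM of Ifng, 8.06 of Cxcl10, 35.4 of Ido1, 9.64 of Socs1 and 211 of Irf1. The Il1f5 WT colitis means were 3.39, 89.8, 163, 42.7 and 298 CPM. Without KO library 2 that colitis group was thus highest for these genes too, but not for Cxcl9 (Il1f9 WT tumours, 132 CPM).

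The balance of the 2 chemokines separated the tissues whatever the genotype. Of the FPKM ratios formed between these genes, it alone had tissue ranges that did not overlap. Between the tissues 72.6% of all tested genes were called, so a ratio that separates them need not be particular to this pair. Within each library, the FPKM of Cxcl9 was divided by that of Cxcl10. The ratio was 0.382, 0.571 and 0.56 in Il1f5 WT colitis, 0.206, 0.204 and 0.387 in the libraries labelled Il1f5 KO, 0.883 and 0.717 in Il1f9 WT and 0.303 and 0.346 in Il1f9 KO. Cxcl10 was thus the higher of the pair in 10 of 10 colitis libraries. In tumours the ratio was 2.25 and 1.47 in Il1f5 WT, 2.66 and 2.95 in those labelled Il1f5 KO, 1.66 and 1.81 in Il1f9 WT and 2.03 and 1.44 in Il1f9 KO. Cxcl9 was the higher in 8 of 8 tumour libraries, the Il1f9 KO library with very high levels of both included. Medians were 0.384 in colitis and 1.92 in tumours, and the ranges (0.204 to 0.883 and 1.44 to 2.95) did not overlap. Art3 counts were 126 to 365 in colitis and 17 to 73 in tumours, and the effect of the exon overlap on the Cxcl10 counts was not tested. Tissue and model differ together, and all colitis libraries share a deposited table apart from those of the tumours, so that these cannot be told apart.

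**Figure D3:**
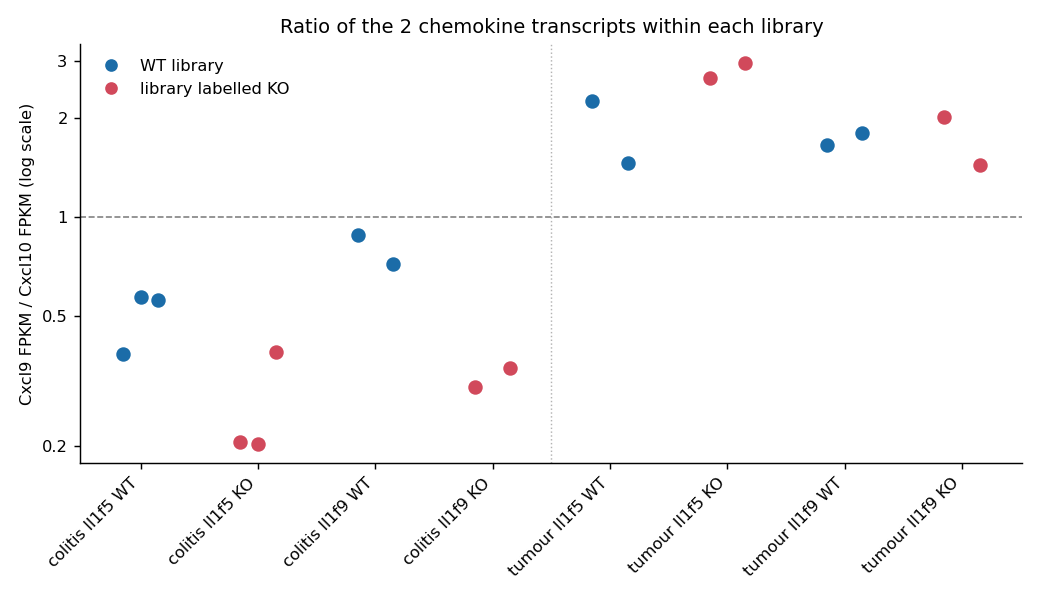
Ratio of Cxcl9 FPKM to Cxcl10 FPKM (log scale) in each library, by group; the dashed line marks equal values. The 10 colitis libraries lie between 0.204 and 0.883 and the 8 tumour libraries between 1.44 and 2.95.

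The level of Cxcl9 was set against that of Ifng. In the tumours labelled Il1f5 KO, with 8 and 2 Ifng counts, Cxcl9 had 2797 and 1873 counts. The colitis libraries labelled Il1f5 KO, with 4, 1 and 9 Ifng counts, had 38, 27 and 190 Cxcl9 counts. Per FPKM of Ifng, Cxcl9 stood at 4.08 to 27.4 in colitis (median 8.1) and at 16.8 to 402 in tumours (median 72.8), ranges that overlap between 16.8 and 27.4. Both are uncertain where Ifng rests on few counts. For Cxcl10 the ranges were 12.7 to 56.9 and 11.7 to 154, which overlap too.

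**Figure D4:**
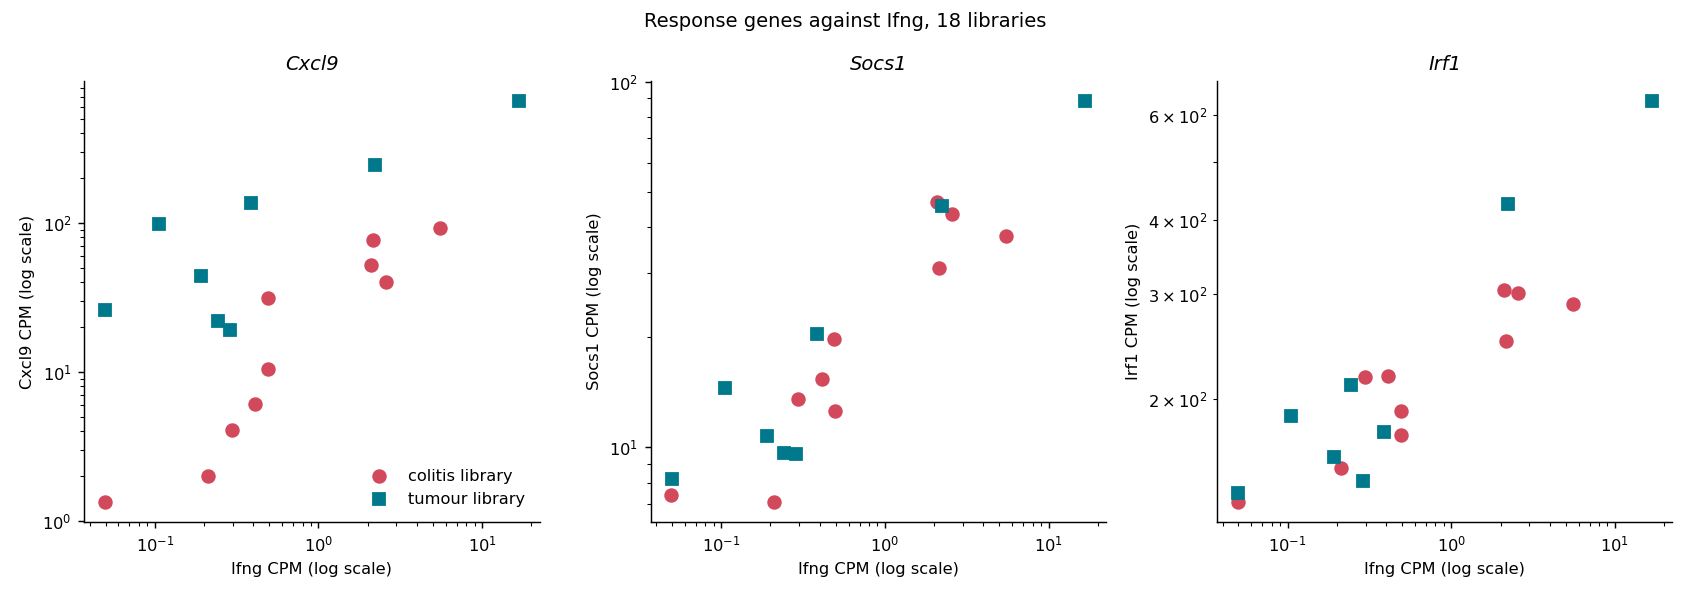
CPM of Cxcl9, Socs1 and Irf1 against CPM of Ifng (both log scales) in the 18 libraries; red circles are colitis and green squares tumours. At Ifng levels under 1 CPM the tumour libraries have more Cxcl9 than most colitis libraries at like Ifng levels, whereas for Socs1 and Irf1 the tissues lie together.

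Other interferons had few counts. Of 12 type I and type III interferon genes, Ifnb1 had 3 counts summed over 18 libraries and Ifna2 had 1, while Ifna1, Ifna4, Ifna5, Ifna6 and Ifnab were at 0 in every library, and a count of 0 allows up to 3 counts per library. Ifne had the most, 61 counts with 26 in its highest library. All its counts were in tumours: 3 and 7 in Il1f5 WT, 26 and 10 in Il1f9 WT, and 5 and 10 in Il1f9 KO.

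Genes around these 7 were taken from lists of the pathway that hold none of them: 79 genes in 7 lists. In colitis, 37 of 78 tested list genes were called lower and 2 higher in the libraries labelled Il1f5 KO, where 11% of all genes were called lower and 13.7% higher. The median log2 fold change of the list genes was -0.61, against -0.01 for all genes. The count of 37 lower became 24 without WT library 1, 23 without WT library 2 and 21 without KO library 1, and the 2 higher (Socs2 and Ptpn2) became 0 without WT library 1, WT library 2 or KO library 2.

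Of the 5 receptor and signalling genes 0 were called in this comparison (edgeR; 2 had an unadjusted p under 0.05). Ifngr1 had 271 ± 25.1 CPM in KO and 267 ± 7.88 CPM in WT (SD, n = 3 each), a log2 fold change of 0.02 ± 0.09, and Ifngr2 had 0.34 ± 0.14. Jak1 (0.05 ± 0.07) and Jak2 (-0.12 ± 0.08) were close to 0.

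Interferon-inducible guanosine triphosphatases, which attack vacuoles that hold microbes, were the list with the largest share lower: 12 of 14 fell, with a median of -2.01. Gbp2 fell from 395 ± 107 to 46.3 ± 16.5 CPM (log2 -3.10 ± 0.39, adjusted p 0.00323 by edgeR, n = 3 each). Gbp4 (log2 -2.88 ± 0.33) and Tgtp2 (-2.54 ± 0.36) fell as well. In antigen presentation 10 of 15 fell, with a median of -0.69. Psmb10, a subunit of the immunoproteasome, fell (-0.70 ± 0.15). H2-Aa, a chain of MHC class II, fell (-0.83 ± 0.21), a call that was lost without WT library 2 or KO library 1, without the filter on low counts, and with only the compared groups fitted. Of 8 interferon transcription factors 3 fell: Batf2 (-1.78 ± 0.23), Ciita, the master regulator of MHC class II (-1.19 ± 0.20), and Irf8 (-0.90 ± 0.16). Among 16 other targets 9 fell, led by Calhm6 (-3.09 ± 0.33), Lap3 (-1.17 ± 0.15), the nitric oxide synthase Nos2 (-1.86 ± 0.24, from 206 ± 2.57 to 57.1 ± 3.29 CPM) and Slamf8 (-1.67 ± 0.28).

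Upstream of Ifng, 2 of 12 tested inducers and regulators of the source cells fell, where 11% of all genes were called lower. Of the 12 values 7 were below 0, and the count is not read further. Il18, a cytokine that drives interferon gamma release, fell from 45.8 ± 10.0 to 21.5 ± 2.13 CPM (log2 -1.09 ± 0.16, adjusted p 0.00194 by edgeR, n = 3 each). Il27 fell (-2.03 ± 0.49), a call lost without WT library 3. Il18bp, the decoy that binds interleukin-18 and is itself a target of interferon gamma, fell (-1.82 ± 0.30). The summed level of 14 T and NK markers did not separate the groups, at 29.6 to 33.9 CPM in WT and 26.6 to 76.0 CPM in the libraries labelled KO. Most of the 13 tested markers had values above 0: the median log2 fold change was 0.53, and 3 were below 0. Klrk1 (-1.21 ± 0.33) and Ncr1 (-2.34 ± 0.64), both receptors of NK cells, fell, against the same 11% of all genes. The other 11 of 13 tested markers were not called. The calls of Klrk1 and Ncr1 were both lost without KO library 2, that of Klrk1 also without WT library 2 or 3, and that of Ncr1 also by the DESeq2 Wald test. Ncr1 counts were 13, 9 and 11 in WT and 3, 1 and 2 in KO, and of the list Ncr1 and Prf1 were at 0 in at least 1 of 18 libraries. Macrophage and dendritic cell markers summed to 220.0 to 248.7 CPM in WT and 223 to 279 CPM in KO, with Cd163 (1.69 ± 0.23) and Mrc1 (0.79 ± 0.18) higher and Itgax (-0.92 ± 0.23) and Ccr2 (-0.63 ± 0.19) lower. The calls of Mrc1, Itgax and Ccr2 were each lost without WT library 1, those of Itgax and Ccr2 also without WT library 2, and that of Ccr2 also without WT library 3, KO library 1 or KO library 2. The 6 smooth muscle markers summed to 1867 to 2106 and 3032 to 4435 CPM. Epithelial markers summed to 13022 to 13726 and 10453 to 12194 CPM. The part of these shifts in the result was not tested.

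The enzyme family of Wars was measured beside it. Of 19 other cytosolic aminoacyl-tRNA synthetases 12 fell in the libraries labelled Il1f5 KO and 0 rose, with a median of -0.42. Kars (-0.66 ± 0.11), Yars (-0.66 ± 0.10), Tars (-0.48 ± 0.07) and Farsa (-0.48 ± 0.07) fell, and the value of Wars, -1.29 ± 0.10, was larger in size than that of each of the 19. Around Ido1, 1 of 10 tested tryptophan and kynurenine genes fell, where 11% of all genes were called lower. It was the amino acid transporter Slc7a5 (-0.46 ± 0.14). That call was lost without WT library 1, WT library 2 or KO library 2, and with only the compared groups fitted.

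**Figure D5:**
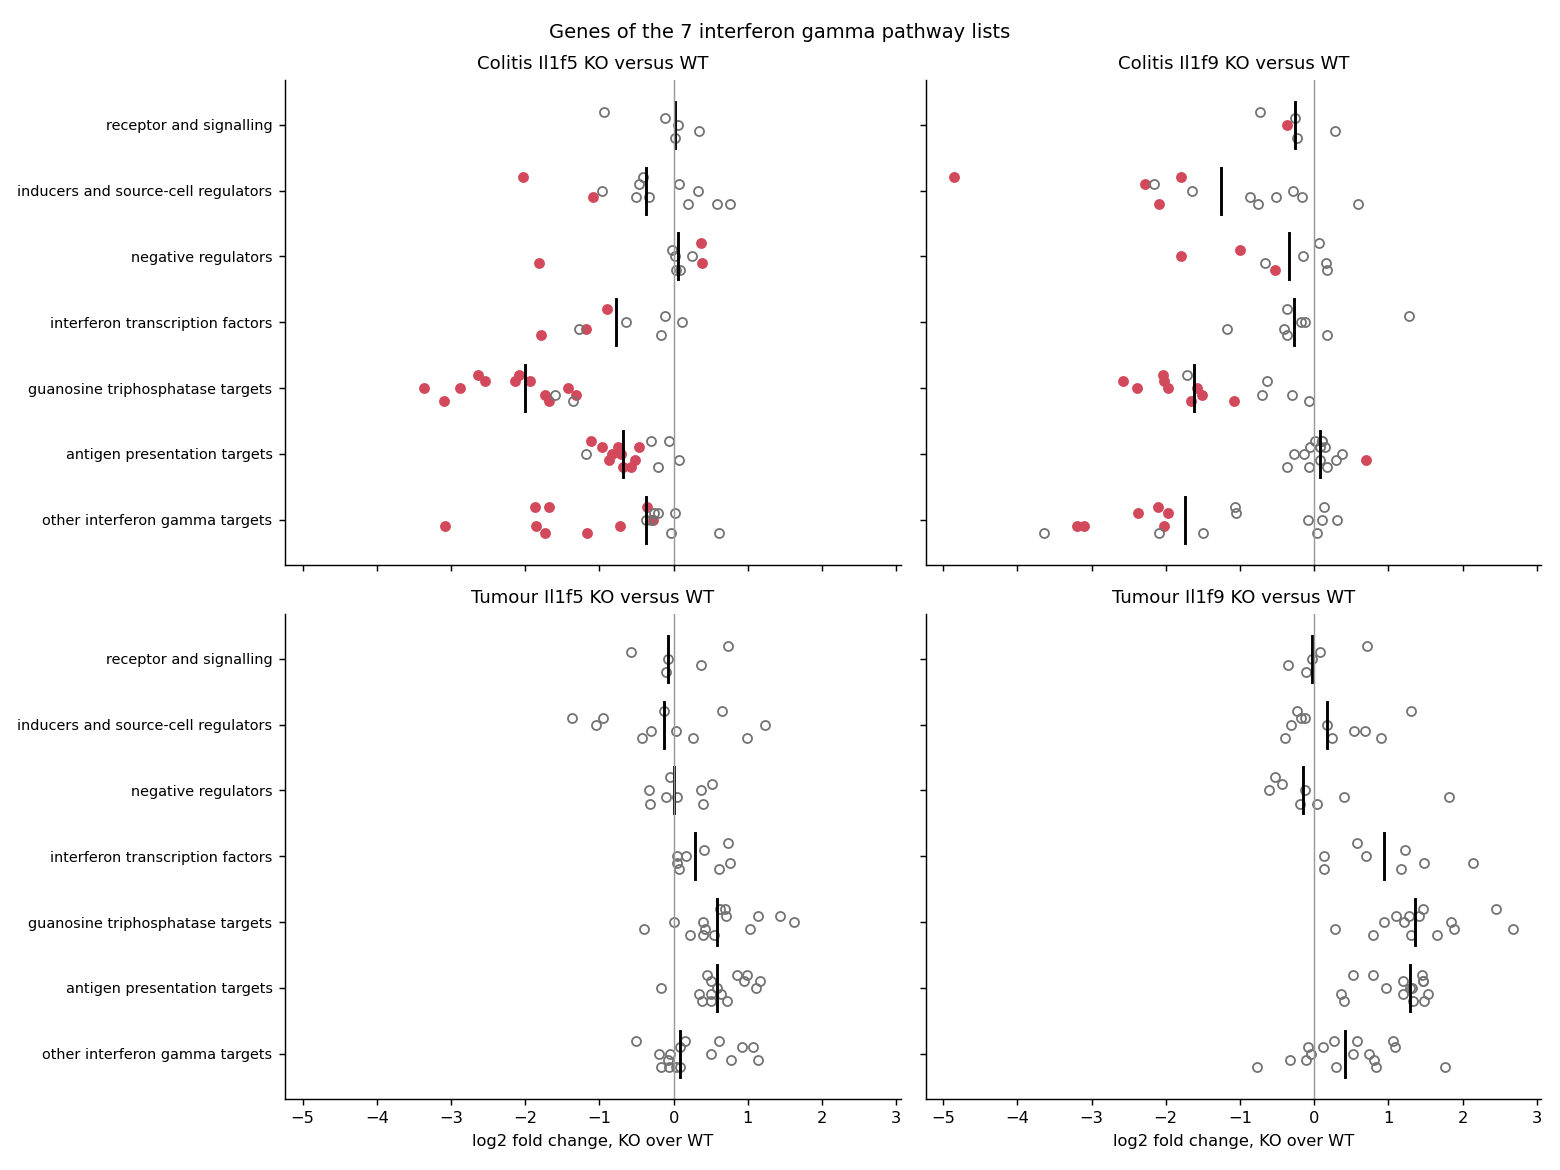
Log2 fold change of the libraries labelled KO over WT for tested genes of the 7 pathway lists in 4 comparisons; filled red points passed an adjusted p under 0.05, open points did not, and black bars are list medians. Guanosine triphosphatase targets lie below 0 in both colitis comparisons (medians -2.01 and -1.63), antigen presentation targets in Il1f5 colitis (median -0.69) but around 0 in Il1f9 colitis (0.07).

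In Il1f9 colitis 9 of 14 guanosine triphosphatases fell, with a median of -1.63. Gbp5 (-2.58 ± 0.40), Gbp9 (-1.59 ± 0.28) and Gbp4 (-2.38 ± 0.41) fell, the last call lost without KO library 2. Over the 7 lists 23 of 78 genes were called lower and 1 higher, where 9.98% of all genes were called lower and 9.59% higher, and the median was -0.39 against -0.01 for all genes. The count of 23 became 15 without WT library 2 and 11 without KO library 2. Of antigen presentation genes 0 of 15 fell (edgeR; 1 had an unadjusted p under 0.05, in either direction), and Psme2, an activator subunit of the proteasome, rose (0.69 ± 0.19), a call lost without WT library 2, KO library 1 or KO library 2. Inducers fell in 4 of 12, among them Il27 (-4.86 ± 0.83), its partner chain Ebi3 (-2.09 ± 0.37) and the interleukin-18 receptor chain Il18rap (-2.28 ± 0.30). Socs3, an inhibitor of cytokine signalling, fell (-1.80 ± 0.31), as did the phosphatase Ptpn1. Fcgr1 (-3.10 ± 0.29) and Nos2 (-3.20 ± 0.31) fell among other targets. Of the receptor genes Jak1 fell (-0.37 ± 0.09), a call lost without WT library 2, KO library 1 or KO library 2, and 4 of 5 were not called.

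Markers of other cell types differed in that line. Macrophage and dendritic cell markers summed to 422 to 460.0 CPM in Il1f9 WT and 112 to 146 CPM in KO, and 9 of 12 fell, such as Csf1r (-2.15 ± 0.18), Adgre1 (-2.47 ± 0.27) and Cd68 (-1.94 ± 0.16). Of all tested genes, 9.98% were called lower and 9.59% higher in this comparison. Smooth muscle markers rose in 6 of 6 and epithelial markers in 4 of 8. Of the 4, Krt19, Krt8 and Epcam each lost their call without WT library 2, KO library 1 or KO library 2, whereas Krt18 (0.82 ± 0.10) did not. Of the smooth muscle markers, Acta2 lost its call without KO library 1, and Tagln without WT library 1, KO library 1 or KO library 2. T and NK markers summed to 44.2 to 74.5 CPM in WT and 47.1 to 47.2 CPM in KO, with 0 of 13 called. Of these 13, 12 had a log2 fold change below 0, with a median of -0.29 against -0.01 for all genes. By edgeR 3 of the 13 had an unadjusted p under 0.05, as had 6227 of all 18299 tested genes. Fcgr1 and Nos2 are also expressed by macrophages, and the part of the marker shifts in these values was not tested.

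A test of the difference between the colitis effects, the log2 fold change in Il1f5 minus that in Il1f9, called 11 list genes higher and 8 lower of 78, where 12.8% and 12% of all genes were called, 24.8% together. Both effects are measured against their own WT libraries. Of the guanosine triphosphatases 0 of 14 differed (edgeR; 1 had an unadjusted p under 0.05). Antigen presentation genes were lower in 3 of 15, among them Psme2 (-1.21 ± 0.25) and Psmb10 (-1.07 ± 0.23), and Lap3 (-1.21 ± 0.24), a leucine aminopeptidase, was lower as well. Il18rap (2.36 ± 0.38), Ebi3 (2.68 ± 0.48), Ptpn1 (0.97 ± 0.17) and Fcgr1 (2.37 ± 0.36) were higher, and all 4 had fallen in Il1f9 KO. Synthetases were lower in 9 of 19, with Kars at -0.93 ± 0.17 and Yars at -0.88 ± 0.16. The 11 became 5 without Il1f9 WT library 2 and 6 without Il1f9 KO library 2. The 8 became 29 without Il1f5 KO library 3 and 3 to 5 in 8 of the 9 other fits with 1 library left out; in the fit without Il1f9 WT library 1 it stayed within 1.5 times of 8.

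Calls of pathway genes in tumours depended on the filter on low counts. With it they were 0 of 77 in either line, where 0.028% (Il1f5) and 0.0168% (Il1f9) of all genes were called by edgeR. Without it 20 were higher and 1 lower in Il1f5, and 35 higher and 1 lower in Il1f9. At an unadjusted p under 0.05 there were 6 in each line, and the DESeq2 Wald test called 0 higher and 1 lower in Il1f5 and 0 in Il1f9. The list median was 0.39 in Il1f5 and 0.72 in Il1f9, against 0.01 and -0.02 over all genes, so that the values lay on the other side of 0 from colitis. Guanosine triphosphatases had medians of 0.58 and 1.35 and antigen presentation genes 0.58 and 1.29. With the Il1f5 tumours fitted alone, 10 list genes were called higher and 1 lower. Leaving out Il1f9 KO library 2 gave 1 higher and 1 lower call in Il1f5 and 1 higher in Il1f9, and leaving out Il1f9 KO library 1 gave 3 higher in Il1f9. Ifngr1 had -0.10 ± 0.14 in Il1f5 and -0.12 ± 0.14 in Il1f9. The difference between the 2 tumour effects gave 0 calls of 77 (edgeR; 4 with an unadjusted p under 0.05, 0 by the DESeq2 Wald test), where 0.0784% of all genes were called (0.0336% higher, 0.0448% lower).

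Whether the Il1f5 effect differed between the tissues was tested in a fit of all 18 libraries, an alternative added after the data were seen. Of 78 list genes 6 were higher in tumour minus colitis and 1 lower, where 10.8% and 7.23% of all genes were called. Without the filter on low counts 46 were higher and 0 lower, and by the DESeq2 Wald test 13 and 3. The median was 1.14 against -0.03 over all genes. Calhm6 (3.86 ± 0.79), Lap3 (1.12 ± 0.35), Ifi30 (0.99 ± 0.22), Gch1 (0.80 ± 0.17), Psme1 (1.31 ± 0.41) and Tapbp (1.18 ± 0.36) were higher and Pias1 lower (-0.57 ± 0.17). Synthetases were higher in 13 of 19, such as Farsa (1.03 ± 0.13), Yars (1.21 ± 0.18) and Kars (1.34 ± 0.23), with a median of 0.70. All these were named after their values were seen. The 6 became 1 without tumour Il1f5 KO library 1 and 3 without any of 7 other libraries of the line, and stayed within 1.5 times of 6 without the 2 others.

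Between the tissues, as the mean of the 4 tumour groups against that of the 4 colitis groups, 22 list genes were higher and 11 lower of 78, where 36.5% and 36.1% of all genes were called. Ifngr2 was higher in tumours by 0.85 ± 0.08 and Ifngr1 lower by a log2 value of -0.49 ± 0.06, so that the receptor chains differed in opposite directions. Ubd, which encodes a ubiquitin-like protein (2.91 ± 0.40), Tgtp1 (2.90 ± 0.71), Tgtp2 (2.31 ± 0.59), Gch1 (1.14 ± 0.06) and Lap3 (1.11 ± 0.13) were higher. Without tumour Il1f9 KO library 2 the values were 1.58 for Tgtp1 and 1.31 for Tgtp2, both still called. Tbx21, the T-bet factor that switches Ifng on in T cells (-1.27 ± 0.34), Irf8 (-1.06 ± 0.20) and Irf7 (-0.90 ± 0.25) were lower. Cd8a (-1.41 ± 0.24) and Cd8b1 (-1.46 ± 0.44), markers of cytotoxic T cells, were lower too. Of 13 tested T and NK markers 4 were called lower, 1 higher and 8 neither way. Of 12 tested inducers and source-cell regulators 3 were called higher and 1, Tbx21, lower. Synthetases were higher in 15 of 19. The count of 11 lower was 19 without tumour Il1f9 KO library 2. Smooth muscle markers were lower in 6 of 6, and their part in these values was not tested.

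Outside the 7, the genes whose pattern over the 10 colitis libraries was most like that of Ifng were Cd274, which encodes PD-L1 (Pearson r = 0.98), Myo1e (0.98), Gbp2 (0.97), Plekhm1 (0.97) and Iqgap2 (0.96), on log2 CPM over 18299 genes. Most like the mean of the 6 response genes were Samhd1 (0.99), Cd274 (0.98), Ripk3 (0.97), Gbp2 (0.97) and Tgtp1 (0.97). All 6 response genes were among the 100 genes most like Ifng, from Cxcl10 at rank 4 to Irf1 at rank 80, Ifng itself being rank 1. With a prior count of 0.5 in place of 2 it was 5 of them (Wars at rank 105), and by Spearman's rho 3. Over the 8 tumour libraries Upp1 (0.99), Rtp4 (0.98), Lpcat2 (0.97), Ccl17 (0.97) and Usp18 (0.97) were most like Ifng, and Gbp5 (0.99), Irgm1 (0.99), Ifi47 (0.98), Samhd1 (0.97) and Tap1 (0.97) most like the response genes. Of the response genes 3 were within the 100 most like Ifng in tumours (Socs1, Irf1 and Cxcl10), 2 with a prior count of 0.5 (Cxcl10 at rank 128), and 0 without Il1f9 KO library 2 or by Spearman's rho. Without that library Cxcl9 had r = 0.65 and Wars 0.36 with Ifng over 7 libraries. These correlations describe libraries that share groups and tissue pieces.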

How the data were processed

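Poly(A) RNA of 18 mouse colon and tumour samples was sequenced with a kit that keeps no strand. The submitters' processing notes name Trim Galore 0.6.4, HISAT2 2.0.5 and featureCounts 2.0.0; no build is named in them. The 3 deposited tables hold the authors' whole-number counts per gene and the authors' FPKM values per library, and were joined by gene identifier. FPKM values were used for ratios between genes within a library, and counts for everything else.

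Groups came from the labels. Tests used edgeR 4.0.16 in R 4.3.3: TMM scaling, filterByExpr, one mean per group, fitted to the 10 colitis or 8 tumour libraries (to 18 where tissues were compared), the robust quasi-likelihood F test and Benjamini-Hochberg adjustment over all genes, with an adjusted p under 0.05 called. Standard errors are the absolute log2 fold change over the square root of F. The pipeline was tested on simulated data. Likeness used log2 CPM with a prior count of 2. The 7 genes, the 14 lists (161 genes, 79 of them in the 7 pathway lists) and the tests were chosen with earlier results of these data known. Named genes are the 7, all receptor and signalling genes (the values of 1 are not reported here), up to 4 called members with the smallest p of each other list per comparison, and the 5 most alike in pattern; genes outside that rule are said to be so. Alternatives were DESeq2 1.42.0 (size factors, Wald test), no filter, the replicate number as a block, only the compared groups, Spearman's rho, a prior count of 0.5, and each library left out; where 1 library was left in a group its spread was taken to be that of the others. Motifs were searched in RefSeq promoters with Python 3.11.15.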

Additional observations from a re-analysis of the deposited data

Results flagged for a closer look

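For the 6 response genes each library labelled Il1f5 KO was below the WT mean in colitis and above it in tumours. For Ido1 1 tumour was above by little (41.3 CPM against a mean of 40.6). The share of all genes that do so was not counted. By a stricter rule, 22% of all tested genes had each KO library below each WT library in colitis, and 35.3% above in tumours. In tumours the log2 fold changes of the 6 genes ran from 0.25 ± 0.66 (Irf1) to 1.70 ± 1.83 (Cxcl9), and none was called. The mean log2 ratio of KO libraries to the WT mean, tumour minus colitis, was 6.06 for Cxcl9, 4.46 for Cxcl10, 4.06 for Ido1, 3.16 for Socs1, 2.10 for Wars and 1.25 for Irf1. This difference was not tested for these genes, because they were chosen with the values known.

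In colitis the effect of the KO label differed between the Il1f5 and Il1f9 lines, by edgeR's test of the difference, for 28 genes named from the lists. Up to 4 with the smallest p were named per list, so 28 is not a measure of the pathway. Of 78 pathway genes 11 were called higher and 8 lower, where 24.8% of all tested genes were called. Values are log2 effects in Il1f5 minus those in Il1f9. Of the signalling, inducer and inhibitor genes, Jak1 had 0.43, Il18rap 2.36, Ebi3 2.68, Ptpn1 0.97, Socs3 1.81 and Ptpn6 0.55. Among targets, Batf2 had -1.42, Psme2 -1.21, Psmb10 -1.07, Psme1 -0.74, Lap3 -1.21, Fcgr1 2.37, Serpina3g 2.00 and Icam1 2.11. The tryptophan genes Afmid and Ahr had 1.35 and 0.70. Synthetases were lower, with Tars at -0.69, Gars at -0.76, Yars at -0.88 and Kars at -0.93. Of the cell type markers, Cd68 had 2.16, Cd163 3.96, Csf1r 2.09 and Adgre1 2.57, while the keratins Krt18, Krt19, Krt8 and Krt20 had -1.09, -0.71, -0.81 and -0.92. With each colitis library left out in turn, 16 of the 28 kept their call in every fit.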

How the results depend on the processing

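Counts of list genes are given as higher and lower. Without a filter on low counts they were 20 and 1 in tumour Il1f5, 35 and 1 in tumour Il1f9, 4 and 17 for the difference of the tumour effects, 39 and 17 between tissues, 46 and 0 for the Il1f5 difference between tissues, and 2 higher in colitis Il1f9. The DESeq2 Wald test gave 3 higher in colitis Il1f9, 13 lower for the colitis difference, 1 lower in tumour Il1f5, and 13 and 3 for the Il1f5 difference between tissues, where DESeq2 size factors gave 2 lower. With only the compared groups fitted, tumour Il1f5 had 10 and 1, and colitis Il1f9 2 higher. Spearman's rho put 3 response genes (colitis) and 0 (tumours) among the 100 most like Ifng, and a prior count of 0.5 put 5 and 2 there. The cause was not tested.

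With 1 library left out, counts ran from 0 to 3 higher and 21 to 47 lower in colitis Il1f5, 0 to 3 and 11 to 18 in colitis Il1f9, 5 to 12 and 3 to 29 for the colitis difference, 0 to 1 and 0 to 1 in tumour Il1f5, 0 to 3 and 0 to 0 in tumour Il1f9, 0 to 0 and 0 to 4 for the tumour difference, 16 to 33 and 11 to 19 between tissues, and 1 to 7 and 0 to 2 for the Il1f5 difference between tissues. Member and line pairs with KO and WT libraries apart were 18 of 28, and 18 to 25 with 1 library left out. Groups that are apart stay apart when a library is removed, so 18 was the lowest value possible and the range measures no robustness. Of all tested genes, 22.5% (higher) and 22% (lower) were apart in colitis Il1f5 and 30.1% and 30.9% in colitis Il1f9. In tumours these shares were 35.3% and 28.7% for Il1f5, and 14.8% and 19.2% for Il1f9. Response genes near Ifng in tumours were 0 without Il1f9 KO library 2. No result changed direction among called values.

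Same-numbered libraries did not deviate together (r from -0.143 to -0.002). In groups of 2 the crossed r is the same value with the sign reversed, so this check cannot exclude a pairing. With the replicate block the counts were 2 and 40 in colitis Il1f5, 1 and 26 in colitis Il1f9, 0 and 0 in both tumour lines, and 21 and 11 between tissues, and the block moved no count by over 1.5 times. With it the calls of Slc7a5 and Cnn1 (colitis Il1f5) and of Krt8 and Epcam (colitis Il1f9) were among those lost. Tumour Il1f9 had r = -0.117, and the crossed block, added after the data were seen, also gave 0 and 0. Depth limits Ifng, at 1 to 9 counts in 11 of 18 libraries.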
